A study of Homo sapiens with 4 samples.

Results

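The 71 genes described here are the heat shock proteins and the J-domain chaperones, chosen by gene name from the 43305 named genes on the arrays. A gene was taken when its symbol began with HSPA, HSPB, HSPD, HSPE, HSPH or HSP90, or with DNAJA, DNAJB or DNAJC, followed by a member number. Expression was measured on 4 one-colour Agilent arrays, 1 each for HN4, HN4_CR, HN30 and HN30_CR, and the question of the design is how the cisplatin-resistant cells differ from the cells they came from. HN4 and HN30 are established human head and neck squamous cell carcinoma lines, grown in DMEM with 10% FBS. HN4_CR and HN30_CR were raised from them by stepwise cisplatin, a platinum drug that crosslinks DNA, and the labels put them in 20 μM of the drug for 48 h. The labels name no drug for the parental lines and do not say whether the RNA was taken while the drug was in the medium, so the resistant state and exposure to the drug cannot be told apart. Each condition is 1 array, and each resistant line is 1 derivation, so the contrast within a line rests on 2 arrays and could not be tested.

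Heat shock proteins are chaperones, which bind unfolded proteins and let them fold. HSP70 proteins do this with ATP, J-domain proteins bring them their substrates and start the ATP cycle, HSP110 proteins exchange the nucleotide, and HSP90 completes the folding of kinases and receptors. Small heat shock proteins hold unfolded proteins without ATP, and the heat shock factor HSF1 switches on the inducible members under heat, heavy metals and other stress.

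Levels are given as log2 of the processed signal minus the 75th percentile of the array, so that 0 is a signal at that percentile, and a level of 1 gene is not set against that of another because probes bind unequally. Of the 71 genes, 63 were well above background on all 4 arrays. DNAJB3, DNAJB7, HSPB3 and HSPB7 were not well above background on any array. DNAJC12 was so only on the resistant arrays, HSPA12B and HSPB2 only on HN30_CR, and HSPB9 on every array but HN4. Of the 48 members with a mean level above 0, 37 (77.1%) were below their HN30 level on HN30_CR, against 66.3% of all genes that bright.

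**Figure D1:**
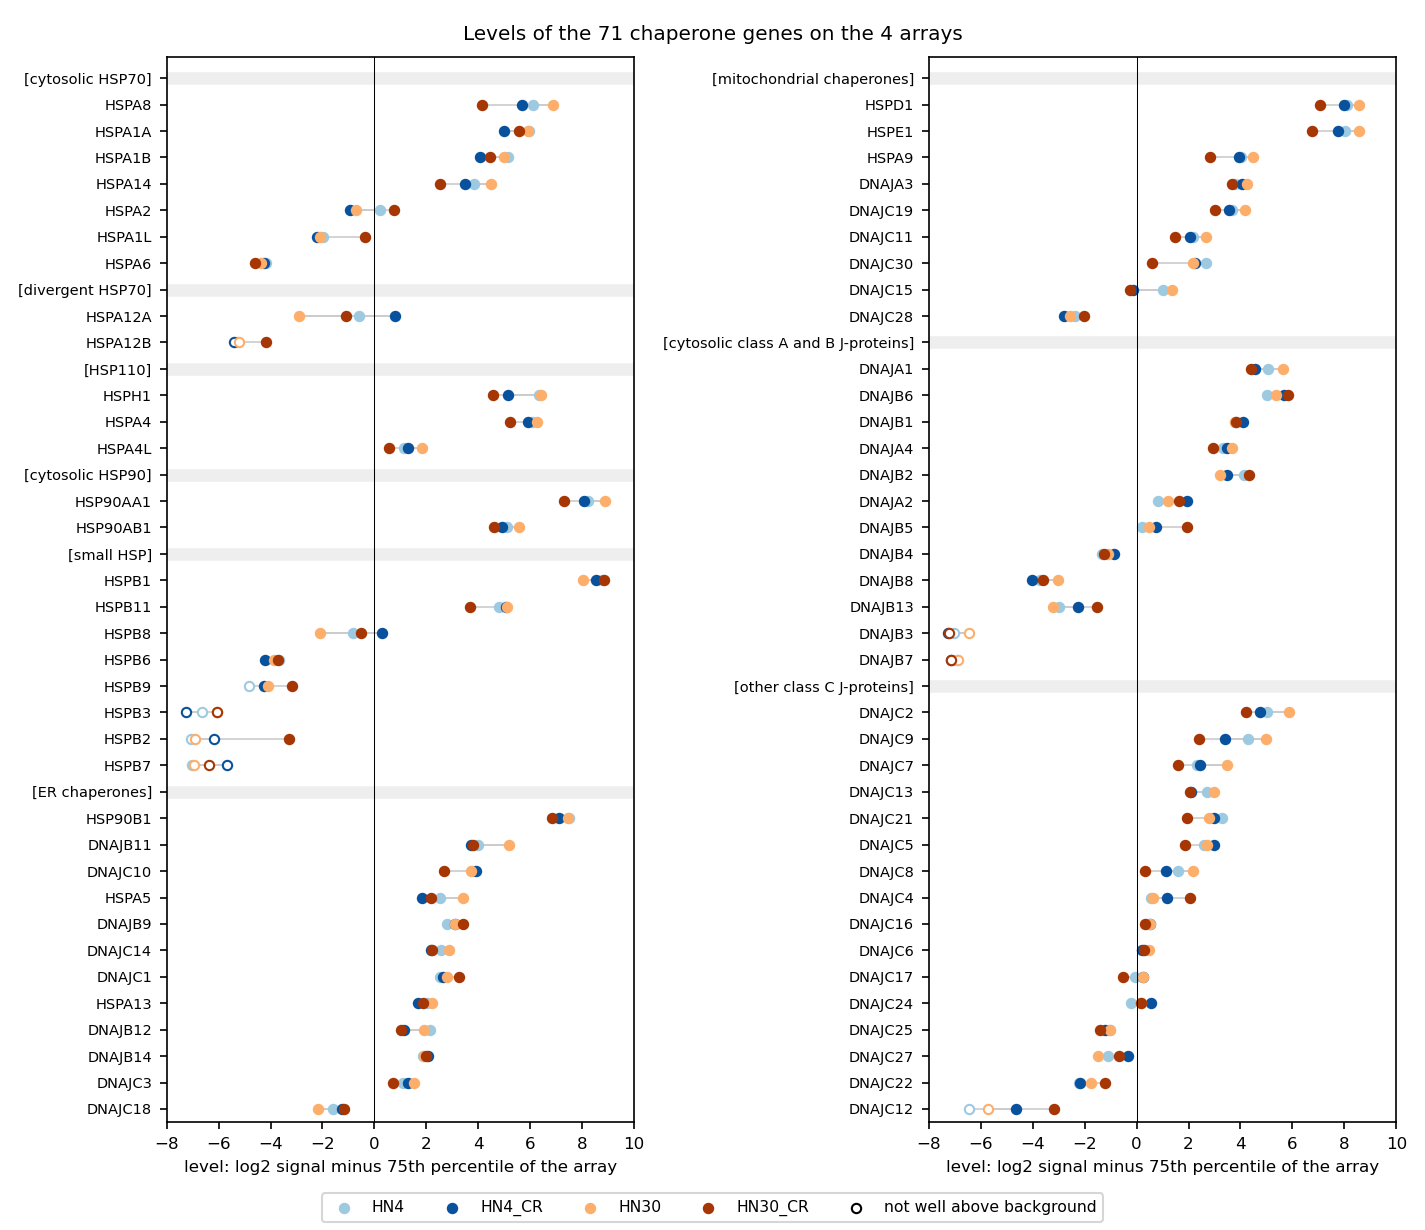
Level of each chaperone gene on each array (x axis, log2 signal minus the 75th percentile of the array), by class, with 1 point per array and open points where the signal was not well above background. For HSPA8, HSPD1, HSPE1 and HSP90AA1 the HN30_CR point lies left of the other 3 arrays, while for HSPB2 it lies far to the right.

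The squamous label was checked first. All 9 squamous markers were well above background on HN4, HN4_CR and HN30, and 8 of 9 on HN30_CR, where KRT6A was not. EPCAM lay between 5.95 and 6.67, SFN between 5.97 and 7.13 and TP63 between -1.59 and -0.77. On HN4 KRT5 was at 2.79 and CDH1 at 4.40, while KRT14 (-2.68), KRT6A (-2.97), KRT17 (-1.78) and DSG3 (-0.62) were below 0. The keratins differed widely between arrays and not in 1 direction. In HN4_CR KRT5 differed by -4.05, KRT6A by 3.32, KRT17 by 3.29, KRT14 by 2.33 and the desmosome protein DSG3 by 1.84. In HN30_CR KRT5 differed by -1.93 and CDH1 by 1.34, and KRT6A was at least 183-fold lower. Whether these shifts of squamous markers had a part in the differences below was not tested. Among markers of other cells, COL1A2 and ALB were not well above background on any array. CD3E was so on HN30_CR only, and PECAM1 on HN4 and HN30_CR only, which makes it at least 2.05-fold lower in HN4_CR and at least 1.64-fold higher in HN30_CR. COL1A1 was on all 4, at -1.85 on HN4, -0.13 on HN4_CR, -3.15 on HN30 and -0.72 on HN30_CR, so that it was brighter on both resistant arrays. PTPRC lay between -3.10 and -2.84. The summed signal of the 6 markers of other cells was 266 on HN4, 549 on HN4_CR, 134 on HN30 and 423 on HN30_CR. That of the squamous markers was 74142 to 129790, carried by SFN and EPCAM (62393 and 44580 of 121713 on HN4). Probes bind unequally, so these sums do not measure shares of cells. Whether other cells had a part in the differences below was not tested. In an RNA sample of many cells, fewer cells that express a gene and less of its RNA per cell cannot be told apart.

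Promoters of several members carry short elements bound by stress-responsive factors, HSF1 at the heat shock element and ATF6 with NF-Y at the ER stress element. They are shown here because genes with the same element differed in how they stood in HN30_CR. The search used the RefSeq promoter windows of GRCh38.p14, which run from 250 bases before to 50 after each start site, and 63 members had a window. A heat shock element of 3 units, written GAANNTTCNNGAA or TTCNNGAANNTTC for the other strand, was in the windows of 7 member genes, DNAJA1, DNAJB6, HSP90AA1, HSP90AB1, HSPA6, HSPA8 and HSPD1. It was in 7 of 82 member windows (8.54%), against 0.490% of all 35116 windows. With 2 units, GAANNTTC or TTCNNGAA, it was in 23 of 82 member windows and in 13.5% of all windows; every match of 3 units also holds matches of 2. The ER stress element, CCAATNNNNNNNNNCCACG or its reverse complement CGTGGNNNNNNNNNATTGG, was in the windows of HSPA5 and HSP90B1 and in 0.0769% of all. The stretches below are read 5′ to 3′ along the gene, end upstream of the start site, and have the matched element in capitals. They are HSPA8 (chr11:123062137-123062236, minus strand), HSP90AA1 (chr14:102087077-102087176, minus), HSP90AB1 (chr6:44247761-44247860, plus), HSPD1 (chr2:197499991-197500090, minus), DNAJB6 (chr7:157336829-157336928, plus), HSPA6 (chr1:161524422-161524521, plus) and HSPA5 (chr9:125241351-125241450, minus).
HSPA8: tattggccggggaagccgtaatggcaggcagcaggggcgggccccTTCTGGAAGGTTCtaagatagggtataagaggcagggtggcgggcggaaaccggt
HSP90AA1: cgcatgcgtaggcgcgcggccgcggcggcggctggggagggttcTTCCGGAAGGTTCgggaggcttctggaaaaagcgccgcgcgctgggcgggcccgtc
HSP90AB1: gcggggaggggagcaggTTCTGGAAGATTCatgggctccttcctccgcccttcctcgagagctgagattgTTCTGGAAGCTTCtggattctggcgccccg
HSPD1: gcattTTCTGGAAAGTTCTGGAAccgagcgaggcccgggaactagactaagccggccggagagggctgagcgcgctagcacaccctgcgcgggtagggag
DNAJB6: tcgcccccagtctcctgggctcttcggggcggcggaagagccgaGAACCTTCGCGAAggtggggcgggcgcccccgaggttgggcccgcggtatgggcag
HSPA6: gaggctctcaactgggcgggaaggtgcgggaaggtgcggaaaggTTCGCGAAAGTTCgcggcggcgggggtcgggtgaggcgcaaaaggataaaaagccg
HSPA5: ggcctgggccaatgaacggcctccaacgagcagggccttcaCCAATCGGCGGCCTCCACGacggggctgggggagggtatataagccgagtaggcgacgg

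HSPA8 holds a second match further upstream, from base -230 to -218, HSP90AB1 shows its pair of matches in the stretch, and in HSPD1 overlapping matches on both strands make 1 run. In DNAJA1 the match lies after the start site, from base 3 to 15. Among the 7 genes the HN30_CR minus HN30 difference ran from -2.75 for HSPA8 to 0.46 for DNAJB6, with a median of -1.24. Of the 7, 4 were lower by over 2-fold, against 16 of 53 members without an exact match of 3 units. The share was 13.3% of all genes and 21.7% of genes with a mean level above 0. Of the 7 genes HSPA6 alone had a mean level below 0, and the part of brightness in this count was not tested. In HN4_CR against HN4 the same genes ran from -0.50 to 0.67, with a median of -0.17. Only exact matches in these windows were counted, and HSPA1A, HSPA1B, DNAJB1 and HSPB1 hold an element of 2 units but none of 3. The members with a window but no exact match of 3 units had medians of -0.58 in HN30_CR and -0.11 in HN4_CR. For elements of 2 units the medians in HN30_CR stood the other way, at -0.43 among genes that hold one and -0.65 among those that do not, while the counts were close, at 7 of 20 and 13 of 40 lower by over 2-fold, to be read against the same shares of all genes. In HN4_CR those medians were -0.14 and -0.12. A match is a description of the letters in these windows, and binding was not measured.

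In HN30_CR the chaperones were lower than in HN30 more often than genes at large, and in HN4_CR they were not. Higher means a resistant minus parental difference past 1 on the log2 scale, which is 2-fold, in a gene detected above background on the resistant array. Lower means a difference past -1 in a gene detected so on the parental array. In HN30_CR 22 of 67 members (32.8%) were lower by over 2-fold, against 13.3% of the 28330 genes that were well above background on either array. Another 11 of 67 (16.4%) were higher, against 19.8% of all genes. In HN4_CR 4 of 65 members were lower, against 8.65% of 26853 genes, and 4 of 65 were higher, against 9.31%. Dim parental signals bear on these counts. HSPA12B, HSPB2 and DNAJC12 among the higher genes in HN30_CR, and DNAJC12 in HN4_CR, were called against a parental signal at background. The median difference of the members was -0.58 in HN30_CR, where that of all genes was 0.06, and -0.11 in HN4_CR, where that of all genes was -0.08.

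The lower values in HN30_CR went with brightness. Genes whose mean level was above 0 had a median of -0.34 in HN30_CR and genes below 0 a median of 0.29. The 48 members above 0 had a median of -0.90, with 22 (45.8%) lower by over 2-fold, against 21.7% of the 10731 genes that bright, and 3 higher (8.66% of such genes). The 19 dimmer members that were well above background in HN30 or HN30_CR had a median of 0.93, with 8 (42.1%) higher, against 26.6% of all dimmer genes, and 0 lower, against 8.13%. With the median of all genes of like brightness taken off each difference, 14 members were lower by over 2-fold in place of 22, against 11.5% of all genes, 11 were higher, against 16.8%, and the median of the members was -0.28. Scaling moved the split as well. Centring each array on its median shifted the median of all genes in HN30_CR by -0.42 and gave 33 members lower (23.9% of all genes) and 8 higher (13.6%). Quantile normalization gave 15 lower (13.1%) and 12 higher (18.0%), and the deposited values also 15 (13.4%) and 12 (17.8%). What part the trend with brightness had in the differences of single genes was not tested.

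**Figure D2:**
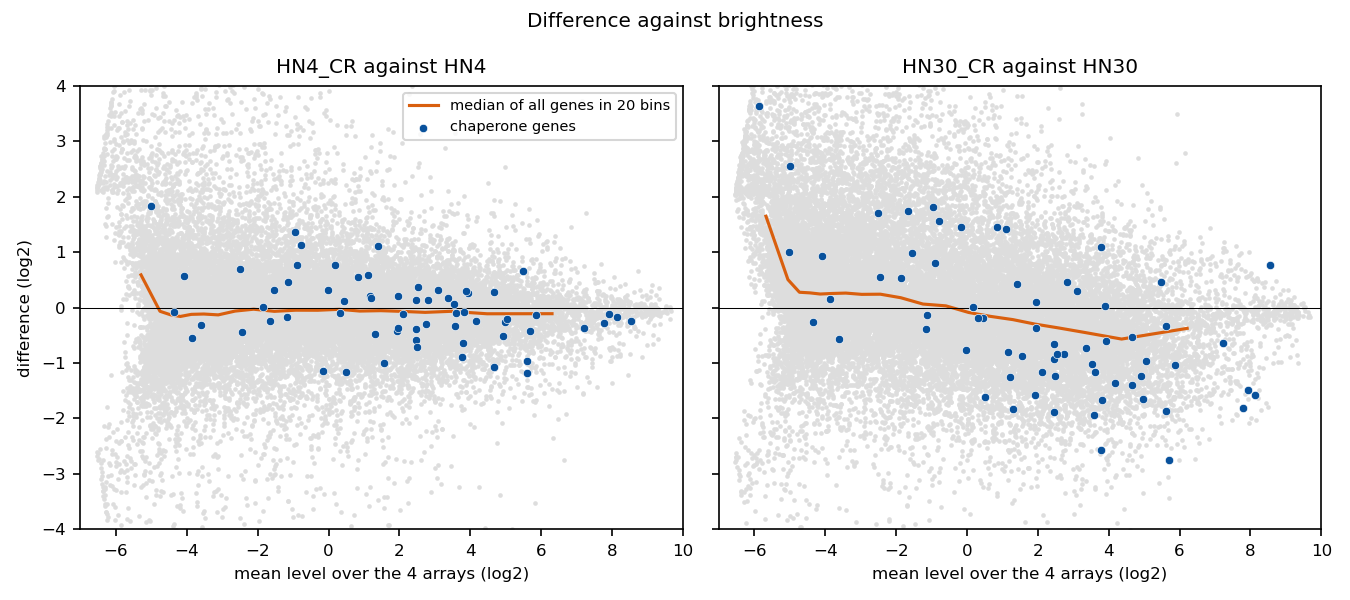
Difference between resistant and parental array (y axis, log2) against the mean level over the 4 arrays (x axis, log2) for all genes well above background in the pair (grey), their median in 20 bins of brightness (orange) and the chaperone genes (blue). In HN4_CR the orange line stays near 0 above the dimmest genes, while in HN30_CR it falls from above 0 to below 0 as signals brighten and most bright chaperone genes lie below it. Genes past a difference of 4 are outside the axes.

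A 4-fold threshold kept few members. In HN30_CR HSPA8 and DNAJC9 were lower by over 4-fold (2.75% of all genes were) and HSPB2 and DNAJC12 were measured as higher (8.37%). HSPB2 and DNAJC12 were not well above background on HN30, so their folds there are bounds of at least 2.53 and at least 2.76, and with dim signals set to the lowest signal well above background 0 members were higher by over 4-fold. In HN4_CR no member passed it in either direction, where 2.2% of all genes were lower and 3.61% higher; the counts at 2-fold are those above. Between the lines, of the 63 members on all 4 arrays, 4 were over 2-fold apart between HN30 and HN4 (6.35%, against 5.99% of all genes), and 11 between HN30_CR and HN4_CR (17.5%, against 20.2%).

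The cytosolic HSP70 genes had medians of -0.42 in HN4_CR and -0.33 in HN30_CR, the latter 0.03 with the trend with brightness taken off, and the HSP110 genes -0.14 and -1.25. HSPA8, the constitutive HSP70 of the cytosol that also uncoats clathrin vesicles, had levels of 6.10 on HN4, 5.68 on HN4_CR, 6.88 on HN30 and 4.13 on HN30_CR. HN30_CR alone stood low, at 14.9% of its parental signal, a difference of -2.75 with a scanner error of 0.20. In HN4_CR the difference was -0.42. Scanner error here is the error of the 2 spots as the scanner software models it, 0.204 for most members spotted once, and it leaves out any spread between cultures.

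HSPH1, an HSP110 that acts as nucleotide exchange factor for HSP70, was lower in both resistant lines. Its levels were 6.32 on HN4, 5.14 on HN4_CR, 6.42 on HN30 and 4.55 on HN30_CR. The parental arrays were nearly level and both resistant arrays were below them, 2.27-fold in HN4_CR and 3.64-fold in HN30_CR. The other HSP110 members did this in HN30_CR but had small differences in HN4_CR. HSPA4 differed by -0.14 in HN4_CR, where the sign depended on the processing, and -1.04 in HN30_CR, and HSPA4L, a relative known from testis, by 0.17 and -1.25.

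The stress-inducible pair HSPA1A and HSPA1B stood the other way round, with the larger difference in HN4_CR. HSPA1A had levels of 5.97 on HN4, 5.01 on HN4_CR, 5.90 on HN30 and 5.58 on HN30_CR, and HSPA1B 5.13, 4.05, 5.00 and 4.47 in that order. HN4_CR was the lowest array for both. The differences in HN4_CR were -0.96 for HSPA1A, from 10 spots and with a scanner error of 0.07, and -1.08 for HSPA1B. In HN30_CR they were -0.33 and -0.54, and the sign of both turned under another processing. The genes are near-identical copies, so their signals are not certain to be separate. HSPA6, a strictly heat-inducible HSP70, was dim on every array, from -4.61 to -4.17, with differences of -0.08 in HN4_CR, where the sign depended on the processing, and -0.25 in HN30_CR.

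HSPA2, an HSP70 known for its part in sperm development, was the one member past 2-fold in opposite directions. Its level was 0.20 on HN4, -0.95 on HN4_CR, -0.69 on HN30 and 0.76 on HN30_CR. It was 2.22-fold lower in HN4_CR and 2.74-fold higher in HN30_CR. HSPA1L, which is also known from testis, was -1.97, -2.22, -2.09 and -0.36 in the same order. HN30_CR alone was high, 3.33-fold above HN30. HSPA14, which works at the ribosome with DNAJC2, was 3.83, 3.49, 4.48 and 2.53, and HN30_CR was the low array, at 26.0% of HN30. DNAJC2 itself differed by -0.27 in HN4_CR and -1.66 in HN30_CR.

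HSPA12A, a distant relative of HSP70, was higher in both resistant lines. Its levels were -0.58 on HN4, 0.78 on HN4_CR, -2.92 on HN30 and -1.10 on HN30_CR. The HN30 pair lay below the HN4 pair, and within each line the resistant array was above the parental, 2.57-fold in HN4 and 3.53-fold in HN30. Its close relative HSPA12B was well above background on HN30_CR only, at least 1.35-fold above HN30.

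The cytosolic HSP90 genes had small differences in HN4_CR and larger ones in HN30_CR. HSP90AA1, the inducible form, had levels of 8.24 on HN4, 8.08 on HN4_CR, 8.89 on HN30 and 7.31 on HN30_CR. HN30_CR was lowest, at 33.4% of HN30, while HN4_CR was at 89.1% of HN4. HSP90AB1, the constitutive form, was 5.12, 4.91, 5.56 and 4.59, a difference of -0.21 in HN4_CR and -0.97 in HN30_CR.

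**Figure D3:**
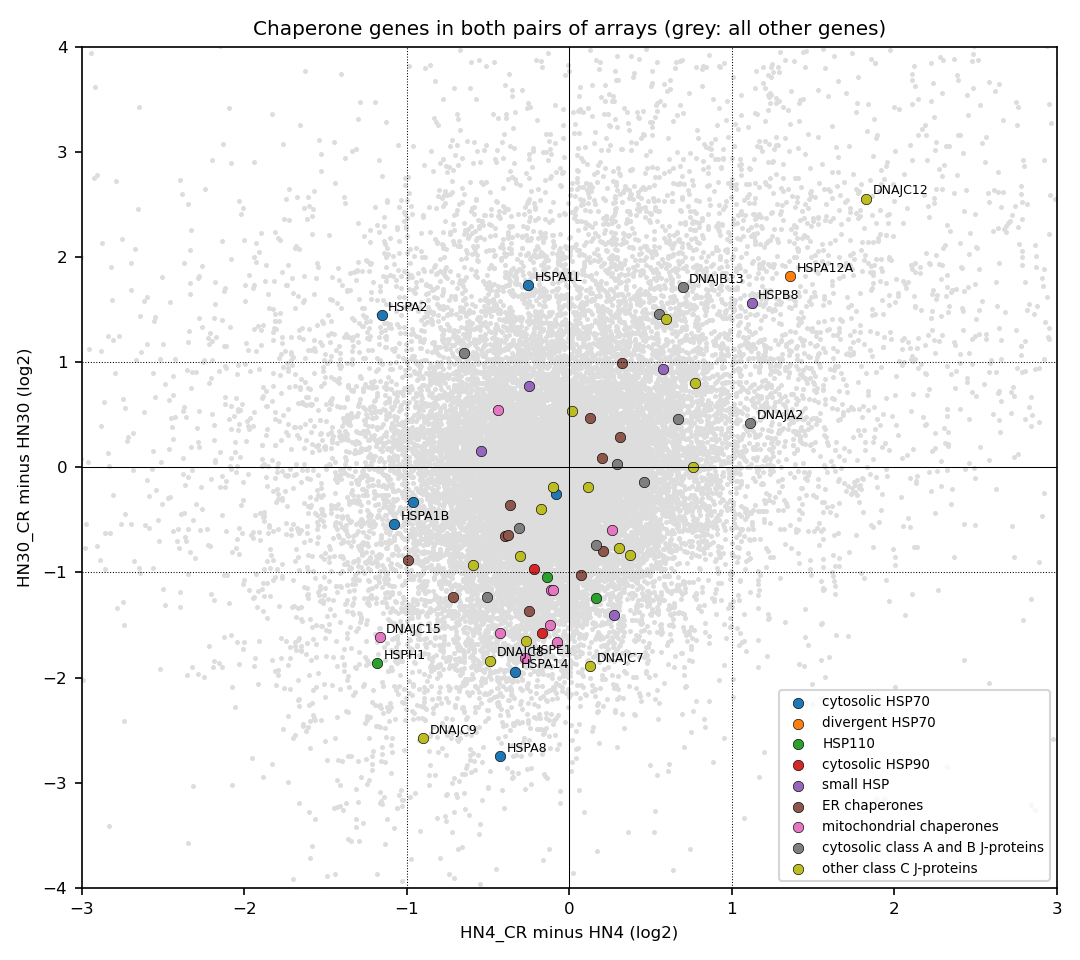
Difference in HN4_CR (x axis, log2) against difference in HN30_CR (y axis, log2) for the 65 chaperone genes well above background in both pairs, coloured by class, over all other genes (grey); dotted lines mark 2-fold, and genes beyond the axes are not shown. HSPA12A, HSPB8 and DNAJC12 lie at the upper right, HSPH1 and DNAJC15 at the lower left, HSPA2 at the upper left, and HSPA8 and DNAJC9 lowest.

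Past 2-fold in both lines, 3 of 65 members were higher (4.49% of 25662 genes were) and 2 were lower (1.99%). The higher genes were HSPA12A, HSPB8 and, by its measured signals, DNAJC12, and the lower ones HSPH1 and DNAJC15. DNAJC12 was detected above background on neither HN4 nor HN30 and its bound in HN4_CR is under 2-fold, so for this gene a 2-fold difference in both lines is not shown. Without a threshold, 31 of the 65 (47.7%) were lower in both resistant lines, against 32.1% of all genes, and 17 (26.2%) were higher in both, against 25.7%. Another 11 (16.9%) were higher in HN4_CR and lower in HN30_CR, against 17.5%, and 6 (9.23%) the reverse, against 24.6%. The HN30_CR difference was the lower of the pair in 44 of 65 members, against 47.7% of all genes.

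The small heat shock proteins had medians of 0.28 in HN4_CR and 0.85 in HN30_CR, over the 5 and 6 genes well above background in the pair. The HN4_CR median is the value of HSPB11, described below, whose sign turned with the mean of probes. HSPB8, which acts with BAG3 in chaperone-assisted autophagy, had levels of -0.82 on HN4, 0.30 on HN4_CR, -2.09 on HN30 and -0.52 on HN30_CR. Both resistant arrays were above their parental array, 2.18-fold and 2.96-fold. BAG3 itself differed by 0.81 in HN4_CR and -0.20 in HN30_CR. HSPB1, or HSP27, which binds unfolded proteins and actin, was bright on every array, at 8.78, 8.53, 8.05 and 8.82. Its differences were -0.25 in HN4_CR and 0.77 in HN30_CR.

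HSPB2, known from muscle, was at -7.06 on HN4, -6.17 on HN4_CR, -6.93 on HN30 and -3.29 on HN30_CR. Only the last was well above background, which makes it at least 2.53-fold higher than HN30. Its neighbour in the genome CRYAB, the alphaB-crystallin, is a small heat shock protein under another name and no member by the rule. CRYAB was at -3.61, -2.14, -3.95 and -2.37, and both resistant arrays were above their parental ones, by 1.47 in HN4_CR and 1.58 in HN30_CR. HSPB6 had differences of -0.54 and 0.16, the latter with a sign that depended on the processing, and HSPB9 was at least 1.42-fold higher in HN4_CR and differed by 0.93 in HN30_CR. HSPB11, which RefSeq now names IFT25 for its part in cilia transport, differed by 0.28 in HN4_CR and -1.40 in HN30_CR, while a dim probe of another transcript gave 0.41 in HN30_CR, and with the mean of probes both signs turned.

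Of the 9 mitochondrial chaperones, 7 were lower by over 2-fold in HN30_CR, where 13.3% of all genes and 21.7% of genes with a mean level above 0 were, and 1 in HN4_CR, where 8.65% of all genes were. The medians were -1.50 and -0.12. HSPD1 and HSPE1, which form the HSP60 and HSP10 folding chamber of the matrix, stood alike. HSPD1 was 8.09 on HN4, 7.97 on HN4_CR, 8.57 on HN30 and 7.08 on HN30_CR. HSPE1 was 8.03, 7.76, 8.57 and 6.76. For both, HN30 was the highest array and HN30_CR the lowest, at 35.5% and 28.5% of HN30. HSPA9, or mortalin, the matrix HSP70 that pulls proteins through the import channel, was 4.03, 3.96, 4.48 and 2.82, and again HN30_CR was low, 3.17-fold below HN30, with a difference of -0.07 in HN4_CR whose sign depended on the processing.

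DNAJC15, a J-protein of the inner membrane also known as MCJ, whose loss has been tied to drug resistance in other tumour cells, was lower in both resistant lines. Its levels were 1.02 on HN4, -0.15 on HN4_CR, 1.38 on HN30 and -0.24 on HN30_CR. The resistant arrays were nearly level and lay below both parental ones, at 44.5% and 32.7% of them. Its paralog DNAJC19, the J-protein of the import motor, differed by -0.10 in HN4_CR, where the sign depended on the processing, and -1.17 in HN30_CR. DNAJC11, a protein of the cristae junctions, differed by -0.11 and -1.16 on its brighter probe and by -0.12 in HN30_CR on the other, and DNAJA3, or TID1, by 0.27 and -0.60. DNAJC30 differed by -0.43 and -1.58 on its brighter probe, but its other probe gave -1.15 and 1.16, the opposite sign in HN30_CR. DNAJC28 was the exception, at 0.55 in HN30_CR.

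The ER chaperones had medians of -0.09 in HN4_CR and -0.65 in HN30_CR, and 3 of 12 were lower by over 2-fold in HN30_CR, against 13.3% of all genes. All 3 were among the 11 with a mean level above 0 (27.3%, near the 21.7% of genes that bright). HSPA5, or BiP, the HSP70 of the ER lumen and a target of the unfolded protein response, was 2.54 on HN4, 1.83 on HN4_CR, 3.40 on HN30 and 2.17 on HN30_CR. Each resistant array was below its parental one, at 60.9% of its signal in HN4_CR and 42.6% in HN30_CR. DNAJB11, its J-protein partner in folding, differed by -0.25 and -1.37, and DNAJC10, the ER reductase ERdj5, by 0.07 and -1.02. HSP90B1, the ER form of HSP90 known as GRP94, was 7.48, 7.10, 7.46 and 6.82, and differed by -0.38 and -0.64.

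DNAJB12, an ER membrane J-protein of protein quality control, had the most negative difference of the class in HN4_CR, at -0.99, and -0.88 in HN30_CR, short of 2-fold in both lines. HSPA13 differed by -0.36 in each. DNAJB9, or ERdj4, a stress-induced J-protein that acts on IRE1, differed by 0.31 in HN4_CR and by 0.29 in HN30_CR, and DNAJC3, or p58IPK, by 0.20 and -0.80. The HN30_CR signs of DNAJB9 and DNAJC3 turned under another processing.

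**Figure D4:**
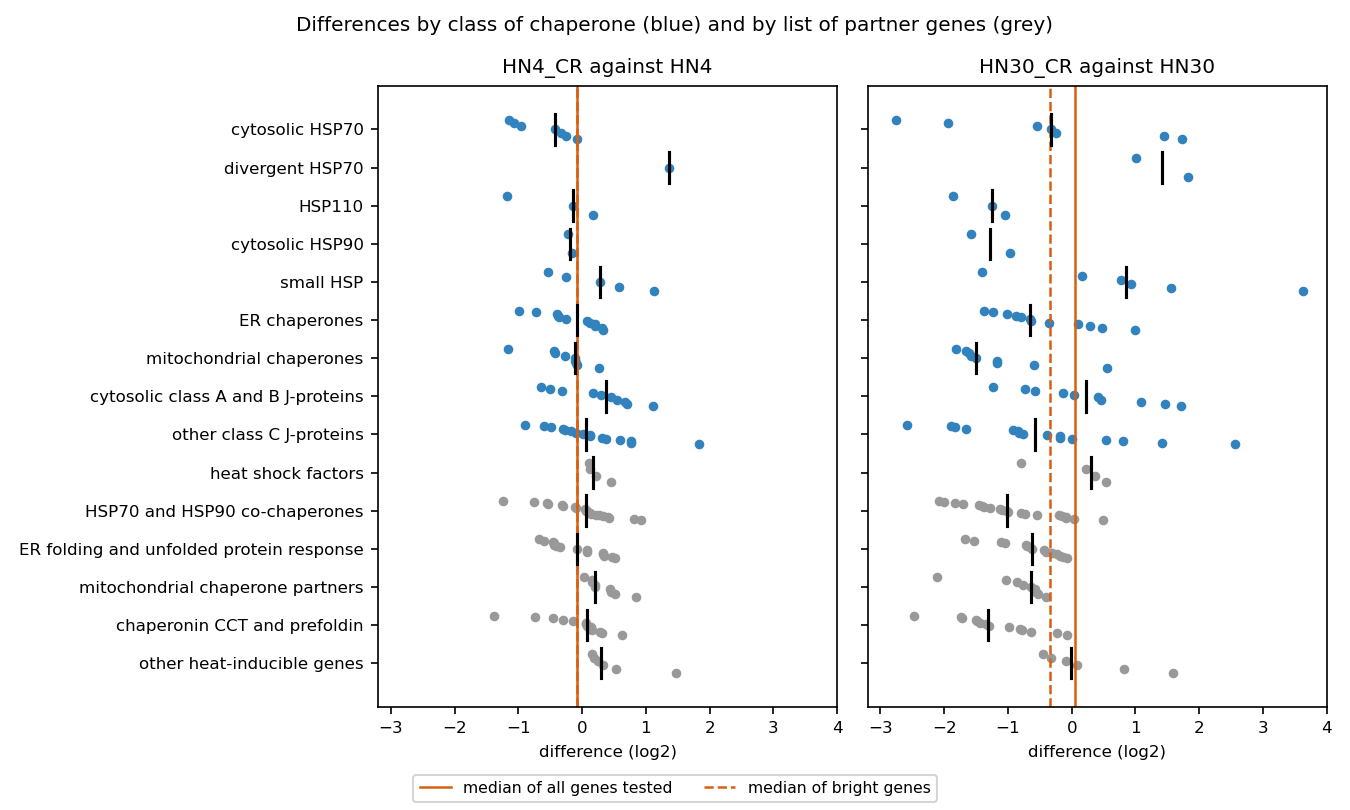
Differences between resistant and parental array (x axis, log2) for the chaperone classes (blue) and for lists of genes that work with them (grey), with 1 point per gene well above background in the pair and a black bar at the median. Orange lines mark the median of all genes tested (solid) and of genes with a mean level above 0 (dashed). In HN30_CR the bars of the mitochondrial, HSP90, HSP110, CCT and co-chaperone lists lie furthest left, those of the ER, class C, ER folding and mitochondrial partner lists lie between them and the lines, and in HN4_CR most bars lie near them.

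The cytosolic J-proteins of classes A and B, the general partners of HSP70, were split, with medians of 0.38 in HN4_CR and 0.23 in HN30_CR. DNAJA1, the farnesylated partner of HSPA8, was 5.07 on HN4, 4.56 on HN4_CR, 5.63 on HN30 and 4.40 on HN30_CR, with differences of -0.50 and -1.24. It was the one gene of the class lower by over 2-fold in HN30_CR. DNAJA2 had 0.83, 1.94, 1.22 and 1.63, and was 2.16-fold higher in HN4_CR; its HN30_CR difference was 0.42, with a sign that depended on the processing. DNAJB1, or HSP40, the inducible partner, was level at 3.80, 4.09, 3.81 and 3.84. DNAJB4 differed by 0.46 and -0.14.

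Higher in HN30_CR by over 2-fold were DNAJB2, DNAJB5 and DNAJB13. DNAJB5 was 0.21 on HN4, 0.76 on HN4_CR, 0.47 on HN30 and 1.93 on HN30_CR, and its other probe gave a like difference of 1.17 in HN30_CR. DNAJB13, a protein of cilia and sperm tails, was -2.97, -2.27, -3.24 and -1.53, with HN30_CR 3.28-fold above HN30. DNAJB2, a J-protein that binds ubiquitin, differed by -0.64 in HN4_CR and 1.09 in HN30_CR. For DNAJB6, which holds back protein aggregates, the probes differed by isoform. The probe chosen for the gene, at hg19 chr7:157178663-157178722 and matched to NM_005494, differed by 0.67 in HN4_CR and 0.46 in HN30_CR. The probe of the other transcript NM_058246, at chr7:157209570-157209629, differed by -1.30 and -1.62, so the transcripts stood in opposite directions in both lines.

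Among the other class C J-proteins, which have special tasks, the median was 0.07 in HN4_CR and -0.58 in HN30_CR, with 4 of 16 lower by over 2-fold in HN30_CR, against 13.3% of all genes. All 4 were among the 11 with a mean level above 0 (36.4%, against 21.7% of genes that bright). DNAJC9, a histone chaperone, was 4.30 on HN4, 3.40 on HN4_CR, 5.00 on HN30 and 2.42 on HN30_CR. Both resistant arrays were below the parental ones, with differences of -0.90 in HN4_CR and -2.58 in HN30_CR, from 10 spots whose SD on the arrays was 0.0166 to 0.0231. A dim probe for another DNAJC9 transcript gave 0.61 in HN30_CR. DNAJC7, which binds both HSP70 and HSP90, was 2.32, 2.45, 3.49 and 1.60, and HN30_CR was at 26.9% of HN30. DNAJC8, a protein found with splicing factors, differed by -0.49 and -1.84.

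On the other side, DNAJC12, a partner of HSP70 for the aromatic amino acid hydroxylases, was -6.47 on HN4, -4.64 on HN4_CR, -5.72 on HN30 and -3.16 on HN30_CR. Neither parental array was well above background, which gives at least 1.09-fold in HN4_CR and at least 2.76-fold in HN30_CR. DNAJC4 was 0.57, 1.16, 0.64 and 2.05, with HN30_CR 2.66-fold above HN30. DNAJC27, a small GTPase with a J domain, differed by 0.77 and 0.80. DNAJC24, needed for the diphthamide of a translation factor, differed by 0.76 in HN4_CR and 0.01 in HN30_CR, where its sign depended on the processing.

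The genes that work with the chaperones were taken as lists and are no members. HSF1 differed by 0.22 in HN4_CR and 0.37 in HN30_CR, and HSF2 by 0.13 and 0.22. None of the 4 genes of that list, which holds HSF4 and the factor-binding protein HSBP1 as well, passed 2-fold in either line. Of 21 co-chaperones of HSP70 and HSP90, 11 were lower by over 2-fold in HN30_CR (13.3% of all genes and 21.7% of those with a mean level above 0) and 1 in HN4_CR (8.65% of all genes). No gene of the list was higher by 2-fold, and the medians were -1.01 in HN30_CR and 0.07 in HN4_CR. CHORDC1, a zinc-binding HSP90 partner, was 3.31 on HN4, 2.07 on HN4_CR, 3.68 on HN30 and 1.85 on HN30_CR, lower in both. BAG2, an exchange factor of HSP70, had the most negative difference of the list in HN30_CR, at -2.08, and ST13, which joins HSP70 to HSP90, the most positive, at 0.49. CDC37, which brings kinases to HSP90, was highest in HN4_CR at 0.92.

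The chaperonin CCT and prefoldin, which fold actin and tubulin, had 8 of 14 genes lower by over 2-fold in HN30_CR. The share there was 13.3% of all genes and 21.7% of those with a mean level above 0. In HN4_CR 1 of the 14 was lower, against 8.65% of all genes. The medians were -1.32 in HN30_CR and 0.08 in HN4_CR. TCP1 was 3.33 on HN4, 2.59 on HN4_CR, 3.79 on HN30 and 1.32 on HN30_CR, and CCT5 differed by -1.38 and -1.72. The 9 partners of the mitochondrial chaperones had medians of 0.21 and -0.64, with all 9 above 0 in HN4_CR and all 9 below 0 in HN30_CR. Of all genes with a mean level above 0, 57.4% were below 0 in HN4_CR and 66.3% in HN30_CR. GRPEL1, the exchange factor of HSPA9, was the lowest of them, at -2.11 in HN30_CR. The 15 genes of ER folding and the unfolded protein response had medians of -0.08 and -0.62, and all 15 were below 0 in HN30_CR. Of them 4 of 15 were lower by over 2-fold, against 13.3% of all genes and 21.7% of those with a mean level above 0, with CRELD2 at -1.67. Of 6 other heat-inducible genes only CRYAB passed 2-fold, in both lines.

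Most members with more than 1 probe gave like differences. Of the 23 genes with over 1 probe well above background in the pair, 19 had probes within 0.5 of each other in HN4_CR and 14 in HN30_CR. The widest ranges were 1.97 for DNAJB6 in HN4_CR and 3.19 for DNAJC9 in HN30_CR, and the sign differed between probes in 3 and 4 genes. Besides DNAJC9, DNAJC30 and HSPB11, given above, for DNAJC10, DNAJC11 and HSPA4 the 2-fold difference in HN30_CR was on the chosen probe only, with -0.67, -0.12 and -0.92 on the other.

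The arrays allow 1 fit with replicates, in which the cell lines serve as replicates of resistant against parental and 1 degree of freedom is left per gene. With limma and the cell line as a block, 0 of 67 members reached an adjusted p (Benjamini-Hochberg) under 0.05, and 0 of 29521 genes (0%) did. At an unadjusted p under 0.05 stood 7 of 67 members, or 10.4%, against 8.59% of all genes. The lowest adjusted p among members was that of HSPH1, 0.471 by limma, with a mean difference of -1.52 and an SE of 0.33, lower in 2 of 2 lines. HSPA12A had a mean difference of 1.59 with an SE of 0.37 and a limma adjusted p of 0.485, higher in 2 of 2 lines. So few arrays limit what the fit can call, and a p above the threshold does not show that these genes were level.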

How the data were processed

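The authors extracted total RNA, labelled it with Cy3 and read each array with Agilent Feature Extraction 10.7.1.1. They deposited the processed intensity of every spot, with the local background subtracted by that software, a flag for signals well above background, and probe coordinates on hg19. A second deposited table holds log2 values of the same arrays, whose quantiles are the same on every array; it served as an alternative only, and the steps behind it are not given in the sources used here.

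From the intensities, log2 was taken and the 75th percentile over the 60901 spots that are not controls was subtracted from each array (444 to 496 in linear signal). Outlier spots (140 to 204 per array) were dropped, repeated spots of 1 probe were averaged, and a gene was given by its probe with the highest mean. Between 55.3% and 63.6% of spots were well above background. The number of arrays, 1 per condition, limits the precision. For a gene not well above background on 1 side, a fold is a lower bound, set by the dimmest signal of that array that the software still marked as above background.

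The members and the lists were chosen with earlier results of these data known. Genes named by rule were the members past 2-fold in the same direction in both lines, the 5 largest rises and 5 largest falls of each line among members well above background on both arrays, a list of core members, HSF1 and HSF2, and the largest rise and fall of each partner list. Other members were named as examples after their values were seen. By accession, 69 of 71 members were matched to RefSeq (GRCh38.p14), from which current names and promoter sequences were taken.

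The fit used limma 3.58.1 in R 4.3.3 (lmFit and eBayes with a trend, Benjamini-Hochberg) over the 29521 genes detected above background on any array. Python 3.11.15 with pandas 2.3.3 and numpy 2.4.6 did the rest. The procedures were tested on simulated data. Alternatives were normexp background correction (offset 50), median centring, quantile normalization, the deposited log2 values, the mean of all probes, a pseudocount of 16, filters on dim genes, removal of the trend with brightness in 20 bins and, chosen after seeing the data, the percentile over probes in place of spots.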

Additional observations from a re-analysis of the deposited data

Results flagged for a closer look

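HSPA2 was past 2-fold in opposite directions in the lines, with -1.15 in HN4_CR against HN4 and 1.45 in HN30_CR against HN30, so that the difference in HN30_CR exceeded that in HN4_CR by 2.61 on the log2 scale. Its probe was well above background on all 4 arrays and was spotted once. The contrast of the lines rests on 1 array per condition, and the difference was not tested.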

How the results depend on the processing

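Of 103 values recomputed under an alternative, 88 stayed near the reported value. They are the counts of members called in each line and in the limma fit and the median of all members. Near is a wide label for a count. It took in 33 members lower by over 2-fold in HN30_CR with median centring and 15 with quantile normalization, in place of 22. A count has no direction, and the median of all members turned its sign under no alternative. Medians of single lists were recomputed with the trend with brightness taken off only, and there 3 of those printed turned sign, to 0.03 for cytosolic HSP70 in HN30_CR, 0.00337 for the ER chaperones in HN4_CR and 0.03 for ER folding in HN4_CR. The median of the members in HN30_CR, -0.58, was -0.99 with median centring, -0.29 with quantile normalization, -0.33 with the deposited log2 values and -0.28 with the trend with brightness taken off. The members lower by over 2-fold in HN30_CR numbered 14 in place of 22 with that trend taken off. Those lower by over 4-fold, 2 as reported, numbered 11 with median centring, 1 with the mean of probes and 4 with the percentile over probes, which was chosen after seeing the data. Those higher by over 4-fold, also 2, numbered 1 with the trend taken off and 0 with normexp, the pseudocount of 16, genes well above background on both arrays or dim signals set to the lowest signal well above background; the last 3 shrink or remove the differences of dim genes by construction. With normexp 2 members were higher by over 2-fold in HN4_CR in place of 4 (4.10% of all genes in place of 9.31%), and 7 in HN30_CR in place of 11 (8.23% of all genes in place of 19.8%). The cause of the other shifts was not tested.

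Besides median centring, the settings that shifted the median of all genes in HN30_CR by over 0.1 were the percentile over probes (-0.13), the filter to both arrays (-0.12) and the deposited values (-0.12). Of 758 differences of named members under an alternative, 604 moved by less than the scanner error and 154 by more. All 30 past 2-fold among the members named by rule kept their sign, but not all stayed past 2-fold. DNAJC12 came down to 0.12 in HN4_CR and 0.57 in HN30_CR. In HN30_CR DNAJC10 reached -0.57, DNAJA1 -0.67, DNAJB11 -0.80 and HSPA5 -0.82, while others, such as HSPA8 at -2.21, stayed past 2-fold. Over all members, the sign turned under at least 1 setting for DNAJA2, DNAJB1, DNAJB6, DNAJB9, DNAJB14, DNAJC3, DNAJC16, DNAJC24, HSPA1A, HSPA1B, HSPB6 and HSPB11 in HN30_CR, and for DNAJC16, DNAJC19, DNAJC22, HSPA4, HSPA6, HSPA9 and HSPB11 in HN4_CR; of these HSPB11 in HN30_CR was past 2-fold, and was 0.02 with the mean of probes. The limma fit called 0 members with the cell line block, without it, with normexp and with the deposited values; at an unadjusted p under 0.05 stood 7 of 67 (8.59% of all genes), 13 (11.1%), 6 (7.35%) and 7 (8.46%). No paired analysis beyond the cell line block was possible because every condition has replicate 1 only.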

Other observations

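DNAJB5-AS1, a transcript that RefSeq names DNAJB5-DT for its start beside DNAJB5, was no member and was well above background on the parental arrays only. Its level was -3.45 on HN4, -7.28 on HN4_CR, -2.87 on HN30 and -6.71 on HN30_CR, at least 2.91-fold lower in HN4_CR and at least 4.20-fold lower in HN30_CR. DNAJB5 itself differed by 0.55 in HN4_CR and 1.46 in HN30_CR. The array probe of DNAJB5-AS1 was spotted once, and the gene was chosen after its values were seen.

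The chaperone genes together gave 0.762% of the summed signal of all genes on HN4, 0.689% on HN4_CR, 0.861% on HN30 and 0.597% on HN30_CR. HN30 and HN30_CR were the highest and the lowest of the 4 arrays, and a sum of this kind is carried by the brightest probes.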
